A study of Schizosaccharomyces pombe with 16 samples.

Results

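The production isolate Wilmar-P of *S. pombe*, a strain used for bioethanol fermentation, was compared with Wilmar-A, the wild isolate it descends from by passaging in molasses, in medium without glucose. The comparison used 4 of the 16 RNA-seq libraries of the study, chosen by isolate and medium label: 2 of Wilmar-P and 2 of Wilmar-A, all of the h90 genotype, which can switch mating type. Cultures were moved from YES, a rich yeast extract medium, with 3% glucose to YES in which 3% glycerol was the added carbon source, and were collected 4 h later at 32 degrees. Total RNA was depleted of rRNA and all 4 libraries were prepared as stranded. The other libraries of the study held the same isolates in 3% glucose and in 3% glycerol with 0.1% glucose, and Wilmar-P beside a laboratory strain in molasses. They entered the fit for the estimate of spread and are named only where a value is set against them.

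Glycerol is a poor carbon source for *S. pombe*, and cells without glucose depend on respiration, which is a source of reactive oxygen. Peroxide is removed by peroxiredoxins and catalase, and it oxidises the transcription factor Pap1, which then stays in the nucleus and switches on genes for drug efflux pumps and for redox enzymes. The centromeres of *S. pombe* consist of a central core between outer repeats, and in laboratory strains transcripts of these repeats are kept low by RNA interference and heterochromatin.

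The Wilmar-P libraries held 13246648 and 13574234 counts on genes in replicates 1 and 2, and the Wilmar-A libraries held 13866326 and 13337212. Levels are given as counts on a gene scaled to library size with TMM factors (CPM). The median protein-coding gene differed between replicates by 0.28 on the log2 scale in Wilmar-P and by 0.22 in Wilmar-A, and 265 coding genes in Wilmar-P and 111 in Wilmar-A differed by more than 2-fold between replicates. The culture state was checked with fbp1, the glucose-repressed gene of fructose-1,6-bisphosphatase, which had 739 and 1033.5 CPM in Wilmar-P and 384 and 799 CPM in Wilmar-A in glycerol, against 5.40 to 20.4 CPM in the glucose libraries of both isolates. The labels do not say whether replicates came from separate cultures, so p-values measure the spread between these samples only.

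Few protein-coding genes passed the test in the main fit, and all that did were lower in Wilmar-P. Of 5073 coding genes tested with edgeR's quasi-likelihood test (absolute log2 fold change above 1 and adjusted p below 0.05), 0 were higher (0%) and 6 were lower (0.118%). At an unadjusted p below 0.05 the counts were 124 higher (2.44%) and 137 lower (2.70%), and the DESeq2 Wald test called 1 higher and 19 lower. Of the 124, 12 lie in the chromosome III span described below. Wilmar-A glucose replicate 1 is labelled stranded, but its share of non-coding counts was like that of unstranded libraries. With it coded as unstranded, 10 coding genes passed, SPAC212.06c higher in Wilmar-P and the others lower. Both Wilmar-P libraries lay above both Wilmar-A libraries for 22.3% of coding genes and below them for 16.5%, and the counts for gene groups are read beside these shares. Of 1589 genes not annotated as coding, 0 were higher (0%) and 13 were lower (0.818%), while 1.07% were higher and 5.41% lower at an unadjusted p below 0.05. Among these the libraries lay apart with Wilmar-P above for 11.6% and below for 26.7%. The median log2 fold change, Wilmar-P over Wilmar-A, was 0.04 over coding genes and 0.02 over all 6662 genes tested.

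The centromeric lncRNAs, long non-coding RNAs that RefSeq annotates at the centromeres of chromosomes I, II and III, held the 6 largest fitted differences of all genes tested. The count table holds 22 of them, of which 14 passed the filter on low counts, 11 fell by the test and all 14 had both Wilmar-P libraries below both Wilmar-A libraries. The filter kept genes that were well counted in any group, so it favoured genes high in Wilmar-A, and the 8 genes it removed had at most 1 count in a Wilmar-P library and at most 5 in a Wilmar-A library in glycerol. The median log2 fold change of the 14 was -6.08, against -0.10 over the 1297 other lncRNAs tested, of which 1 was lower by the test. In all, the 22 genes summed to 31.1 and 26.3 CPM in Wilmar-P, against 2165 and 2703 CPM in Wilmar-A. Stated as a share of all counts, that was 0.00279% and 0.00227% in Wilmar-P and 0.194% and 0.224% in Wilmar-A.

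Several of these transcripts share long identical stretches, and their sequences show how far their counts can be told apart. SPNCRNA.231, at the centromere of chromosome I, and SPNCRNA.373, at that of chromosome II, share an identical stretch of 304 bases. A window of 90 bases over the end of that stretch is shown for each (RefSeq ASM294v3, plus strand, chrI:3761525-3761614 and chrII:1641094-1641183), with the shared bases in capitals.
SPNCRNA.231: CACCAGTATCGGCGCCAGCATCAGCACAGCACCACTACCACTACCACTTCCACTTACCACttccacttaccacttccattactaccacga
SPNCRNA.373: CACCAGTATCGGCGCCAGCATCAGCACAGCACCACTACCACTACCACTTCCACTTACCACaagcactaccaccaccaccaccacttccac
nam5 and nam6, also on chromosomes I and II, share a stretch of 489 identical bases, and the same kind of window over its end is shown (plus strand, chrI:3754169-3754258 and chrII:1610132-1610221).
nam5: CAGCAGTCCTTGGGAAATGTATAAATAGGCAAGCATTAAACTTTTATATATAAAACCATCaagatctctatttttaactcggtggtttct
nam6: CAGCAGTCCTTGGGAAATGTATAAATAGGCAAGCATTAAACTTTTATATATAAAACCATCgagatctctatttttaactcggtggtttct
Of the 14 tested centromeric lncRNAs, 12 shared at least one run of 50 bases with another of the 14 on the same or the opposite strand. A read that lies within such a run fits more than one gene, so the 14 values are not independent measurements. SPNCRNA.364 and SPNCRNA.365 shared no such run with the others tested. Still, 95.1% and 100% of their runs of 50 bases occur more than once in the genome, so their reads are not unique either.

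SPNCRNA.231 had the largest fitted difference of the set. It had 6 and 10 counts in Wilmar-P, or 0.505 and 0.855 CPM, against 5993 and 7505 counts in Wilmar-A, or 484 and 679 CPM. The log2 fold change was -9.72 (SE 0.61, edgeR adjusted p = 1.29e-05), and the ratio of Wilmar-A over Wilmar-P was 849 with a 95% counting interval of 522 to 1485. Its chromosome II relative SPNCRNA.373 had 28 and 16 counts in Wilmar-P and 1280 and 1383 counts in Wilmar-A (log2 fold change -5.93, SE 0.45, edgeR adjusted p = 6.97e-05). In both genes the Wilmar-P libraries lay far below the Wilmar-A libraries, with no overlap.

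On chromosome I, SPNCRNA.232 had 32 and 29 counts in Wilmar-P against 4211 and 5090 in Wilmar-A (log2 fold change -7.27, SE 0.36, edgeR adjusted p = 3.07e-06). SPNCRNA.234, from the other side of the same centromere, had 51 and 78 counts in Wilmar-P against 4551 and 5036 in Wilmar-A (log2 fold change -6.23, SE 0.37, edgeR adjusted p = 9.48e-06). On chromosome II, SPNCRNA.371 had 15 and 12 counts in Wilmar-P against 1938 and 1873 in Wilmar-A (log2 fold change -7.14, SE 0.35, edgeR adjusted p = 3.07e-06). These genes had far more counts in both Wilmar-A libraries than in either Wilmar-P library, and replicates of one isolate differed little beside that gap. SPNCRNA.372, at a like level on chromosome II, had 121 and 87 counts in Wilmar-P against 4130 and 4604 in Wilmar-A (log2 fold change -5.41, SE 0.32, edgeR adjusted p = 9.48e-06).

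The other genes of the set that fell are given next. SPNCRNA.360 had 24 and 13 counts in Wilmar-P against 2677 and 2483 in Wilmar-A (log2 fold change -7.13), SPNCRNA.359 had 19 and 19 against 481 and 326 (-4.40), and SPNCRNA.365 had 28 and 24 against 545 and 786 (-4.70). All 3 passed the test in edgeR. nam5 and nam6 had 1 count each in Wilmar-P replicate 1 and 0 in replicate 2, while Wilmar-A had 15.4 and 9.42 CPM of nam5 and 16.1 and 10.05 CPM of nam6. The ratio of Wilmar-A over Wilmar-P was 297 for nam5 (95% counting interval 52.9 to 11761) and 312 for nam6 (55.6 to 12357), and the fitted log2 values, -7.94 and -8.01, depend on the prior count. With these genes set at the bound that 3 counts over the 2 Wilmar-P libraries give, the median of the set is -6.08 too, as both bounds still lie below it.

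The tested genes that missed the threshold were SPNCRNA.362, with 1.68 and 0.769 CPM in Wilmar-P against 37.2 and 34.5 CPM in Wilmar-A (log2 fold change -4.86, edgeR adjusted p = 0.306), SPNCRNA.364, with 0.421 and 0 CPM against 11.1 and 11.8 CPM (-5.70, edgeR adjusted p = 0.643), and SPNCRNA.485. The last, the only one tested at the centromere of chromosome III, had 17 and 10 counts in Wilmar-P against 32 and 36 in Wilmar-A (log2 fold change -1.35, edgeR adjusted p = 0.936). Its libraries did not overlap, but the gap was small beside those on chromosomes I and II. Leaving out Wilmar-P replicate 2 reduced the number of centromeric lncRNAs that passed from 11 to 6, with nothing but the lone Wilmar-P library to carry that isolate, and 8 to 9 passed without any one of the other libraries.

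**Figure D1:**
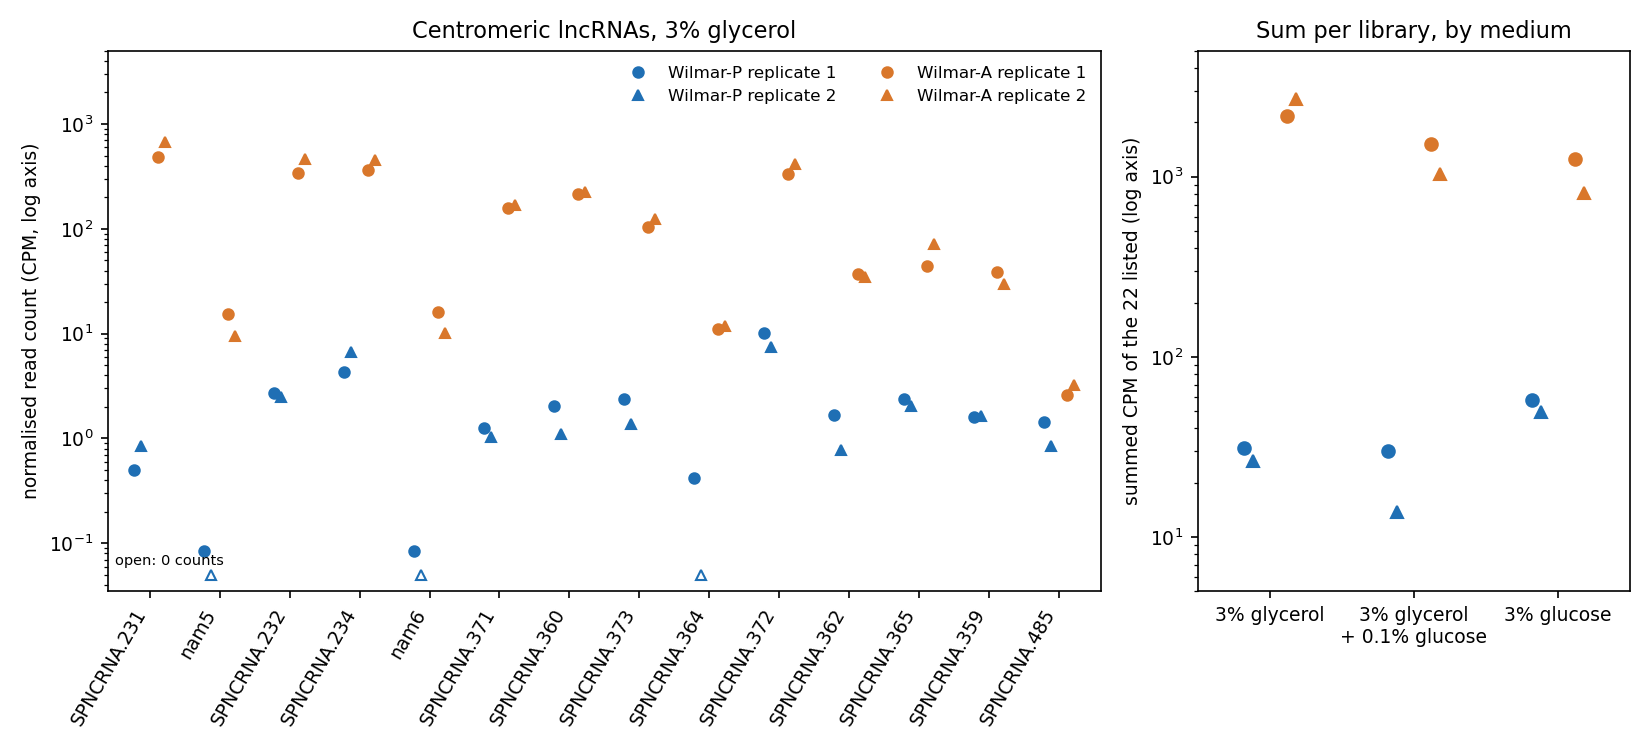
CPM of the 14 tested centromeric lncRNAs in each glycerol library (left, log axis, Wilmar-P blue and Wilmar-A orange, circles replicate 1 and triangles replicate 2, open symbols 0 counts drawn at the foot of the axis), and the summed CPM of all 22 per library in each medium (right, log axis). The Wilmar-P libraries lie below the Wilmar-A libraries for every gene shown, and the sums lie between 13.7 and 57.7 CPM in Wilmar-P and between 808 and 2703 CPM in Wilmar-A.

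The difference was present in the other laboratory media too. The 22 genes summed to 30.01 and 13.7 CPM in Wilmar-P and 1523 and 1040 CPM in Wilmar-A in 3% glycerol with 0.1% glucose, and to 57.7 and 49.5 CPM in Wilmar-P and 1252 and 808 CPM in Wilmar-A in 3% glucose. The ratio of the mean sums, Wilmar-A over Wilmar-P, was 84.8 in glycerol, 58.7 in glycerol with glucose and 19.2 in glucose. Wilmar-P replicate 1 in glucose and replicate 1 of both isolates in glycerol with glucose were labelled unstranded. The sums were not corrected for strandedness, so the ratios of different media mix library type with medium. No tested centromeric lncRNA passed edgeR's test of a change in the isolate difference between glycerol and either other medium. In molasses, where no Wilmar-A library was analysed here, the sum was 31.2 and 36.0 CPM in Wilmar-P and 9.20 and 12.5 CPM in the laboratory strain. The Wilmar-P sums in molasses were thus near its sums in glycerol, and the laboratory strain's lay below them.

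Genes next to the repeats differed far less and did not pass the test. IRC1-L and IRC1-R, transcripts named for the inverted repeats at the edges of the chromosome I centromere, had 29 and 29, and 29 and 30 counts in Wilmar-P, and 44 and 44, and 45 and 44 counts in Wilmar-A (log2 fold changes -0.61 and -0.60, edgeR adjusted p = 0.947 for each). The counts of IRC1-L and IRC1-R were near-equal in each of these libraries, so they may share reads and are not separate measurements. Beyond them, the coding gene per1 had a log2 fold change of 0.19 and emc5 of -0.01. Of 24 genes of the heterochromatin and RNA interference machinery, a list drawn up after the centromeric values were seen, 0 passed the test in edgeR, 0 reached an unadjusted p below 0.05, and the DESeq2 calls named none of them. Both Wilmar-P libraries lay above both Wilmar-A libraries for 9 of the 24 and below for 3, beside 22.3% and 16.5% of all coding genes. The H3K9 methyltransferase gene clr4 had 19.3 and 18.6 CPM in Wilmar-P against 24.3 and 22.4 CPM in Wilmar-A (log2 fold change -0.30), and ago1, for Argonaute, had 61.1 and 49.7 CPM against 77.7 and 68.8 CPM (-0.40). The Dicer gene dcr1 had 58.7 and 55.1 CPM in Wilmar-P against 52.4 and 60.6 CPM in Wilmar-A (0.01), so its libraries overlapped. Reads were aligned to the laboratory genome, and fewer transcripts and fewer reads that align to these repeats cannot be told apart in a count table.

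Among coding genes, 3 of the 6 that fell are known for redox or efflux functions. osr1, a dehydrogenase gene on chromosome III (1644754 to 1645876 in the deposited annotation, ASM294v2), had 4.12 and 5.13 CPM in Wilmar-P against 35.6 and 34.7 CPM in Wilmar-A. Its replicates were close in both isolates, and its log2 fold change was -2.92 (SE 0.40, edgeR adjusted p = 0.0115). srx1, the sulfiredoxin gene that restores overoxidised peroxiredoxin (chromosome II, 376253 to 377036), had 38.6 and 16.7 CPM in Wilmar-P against 114 and 193 CPM in Wilmar-A (log2 fold change -2.47, SE 0.43, edgeR adjusted p = 0.0475). Its replicates lay further apart, with Wilmar-P replicate 2 lowest and Wilmar-A replicate 2 highest, but the isolates did not overlap. pmd1, for an ABC pump that exports leptomycin B (chromosome III, 1634987 to 1640571), had 182 and 167 CPM in Wilmar-P against 509 and 381 CPM in Wilmar-A (log2 fold change -1.35, SE 0.22, edgeR adjusted p = 0.0331).

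The other 3 were transporter and phosphatase genes. SPCC569.05c, annotated as a transporter of the spermidine family (chromosome III, 2423807 to 2427995), had 19.1 and 12.5 CPM in Wilmar-P against 91.5 and 50.2 CPM in Wilmar-A (log2 fold change -2.16, SE 0.33, edgeR adjusted p = 0.0223). SPCC1529.01, also a transporter (chromosome III, 236660 to 239381), had 6.73 and 4.96 CPM in Wilmar-P against 17.99 and 16.2 CPM in Wilmar-A (log2 fold change -1.55, SE 0.25, edgeR adjusted p = 0.0286). SPAC1039.02, annotated as a phosphoprotein phosphatase (chromosome I, 5448735 to 5451642), had 6.06 and 8.12 CPM in Wilmar-P against 20.7 and 17.0 CPM in Wilmar-A (log2 fold change -1.41, SE 0.24, edgeR adjusted p = 0.0462). For all 6 genes the highest Wilmar-P library lay below the lowest Wilmar-A library. The number of coding genes called lower depended on single libraries: it was 0 without Wilmar-A replicate 1, 0 without Wilmar-P replicate 2, 1 (SPCC569.05c) without Wilmar-A replicate 2, and 6, of which 3 were among the 6 named here, without Wilmar-P replicate 1. Over these fits the 6 genes kept their sign, with osr1 between -3.09 and -2.77, pmd1 between -1.54 and -1.13, the SPCC569.05c log2 fold change between -2.53 and -1.67 and that of srx1 between -3.20 (without Wilmar-P replicate 1) and -1.99 (without Wilmar-P replicate 2). With the 4 glycerol libraries alone osr1 was the 1 coding gene that passed, and with at least 10 counts in every library srx1, pmd1 and SPAC1039.02 were no longer called.

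The list of Pap1-dependent efflux and detoxification genes, which includes osr1 and pmd1, stood lowest of all coding gene lists. The lists and their members were chosen with earlier results of these data known, so this rank is a description and no test. The 7 tested members of the Pap1 list had a median log2 fold change of -1.35, beside 0.04 over all coding genes. All 7 had values below 0, 2 passed the test, 4 reached an unadjusted p below 0.05 and 6 lay below Wilmar-A without overlap, beside 16.5% of all coding genes. bfr1, for an ABC pump that exports brefeldin A, had 271 and 161 CPM in Wilmar-P against 638 and 471 CPM in Wilmar-A (log2 fold change -1.36, edgeR adjusted p = 0.475), and the DESeq2 test called it. obr1, for a quinone oxidoreductase, had 2081 and 1002 CPM in Wilmar-P against 2775 and 3057 CPM in Wilmar-A (log2 fold change -0.92, edgeR adjusted p = 0.886). caf5, a transporter gene of the spermine family, had 80.04 and 160.2 CPM in Wilmar-P against 251 and 232 CPM in Wilmar-A (log2 fold change -1.01, edgeR adjusted p = 0.890). Replicate 2 of Wilmar-P was the lower one in bfr1, obr1 and, by little, pmd1. In caf5 and, by little, osr1, replicate 1 was. The short chain dehydrogenase gene SPCC663.08c, at 0.337 and 0.256 CPM in Wilmar-P and 1.13 and 0.543 CPM in Wilmar-A, was near the limit of detection, and mfs1, a transporter gene, overlapped between isolates (log2 fold change -0.12). pap1 itself had 374 and 415 CPM in Wilmar-P against 376 and 421 CPM in Wilmar-A (log2 fold change -0.01).

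The bases before these genes were searched for sites that Pap1 and related bZIP factors can bind. In the 300 bases before the annotated transcript start (RefSeq ASM294v3), TTACGTAA on either strand was present in 0.549% of 5103 coding genes, TTAGTAA in 12.7% and TGACGT in 6.04%, and the motifs do not overlap one another in the hits shown. Of 11 genes searched, the 7 of the list and the other 4 that fell, obr1 held TTACGTAA, while bfr1, caf5 and srx1 each held TTAGTAA or its reverse complement. The windows around these hits are shown in the direction of transcription, with the motif in capitals (obr1 minus strand, chrI:2095072-2095111, bfr1 minus strand, chrIII:715430-715468, caf5 plus strand, chrII:3166495-3166533, and srx1 minus strand, chrII:377174-377212).
obr1: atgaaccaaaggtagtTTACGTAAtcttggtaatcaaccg
bfr1: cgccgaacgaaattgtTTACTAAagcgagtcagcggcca
caf5: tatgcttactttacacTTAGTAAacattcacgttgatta
srx1: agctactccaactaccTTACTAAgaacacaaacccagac
The windows of the other 7 held none of the 3 motifs, osr1 and pmd1 among them, which says only that these letters are not there. osr1 and SPCC663.08c, neighbours on chromosome III, share an identical stretch of 81 bases before their starts, which 2 of the 5103 windows hold. It ends 79 bases before the start of osr1 and 24 bases before that of SPCC663.08c, and is shown in capitals with the bases up to the start in lower case (minus strand, chrIII:1645877-1646036 and chrIII:1648819-1648923).
osr1: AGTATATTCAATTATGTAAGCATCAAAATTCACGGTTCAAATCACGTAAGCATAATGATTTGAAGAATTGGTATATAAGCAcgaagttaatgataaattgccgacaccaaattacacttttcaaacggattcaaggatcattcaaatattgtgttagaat
SPCC663.08c: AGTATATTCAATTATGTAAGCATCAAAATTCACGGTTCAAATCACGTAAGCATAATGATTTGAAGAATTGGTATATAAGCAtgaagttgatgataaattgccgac

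pmd1 and osr1 are themselves close on chromosome III, but the genes between them did not move with them. rpl39, for a ribosomal protein, had a log2 fold change of 0.41, SPCC663.18 of -0.01 and asf1, a histone chaperone gene, of 0.30. Near bfr1, a pseudogene and a non-coding RNA fell. The pseudogene SPCC18B5.02c had 5.81 and 9.23 CPM in Wilmar-P against 50.03 and 45.3 CPM in Wilmar-A (log2 fold change -2.66, SE 0.34, edgeR adjusted p = 0.00738). The non-coding RNA SPNCRNA.472, which lies between it and bfr1, had 15 and 8 counts in Wilmar-P against 98 and 87 in Wilmar-A (log2 fold change -3.01, SE 0.46, edgeR adjusted p = 0.0224). Another neighbour, the non-coding RNA SPNCRNA.1153, overlapped between isolates, at 7.83 and 17.0 CPM in Wilmar-P against 12.9 and 28.2 CPM in Wilmar-A (log2 fold change -0.72, edgeR adjusted p = 0.947). SPCC18B5.02c, SPNCRNA.472 and the 11 centromeric lncRNAs were the 13 genes not annotated as coding that fell.

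**Figure D2:**
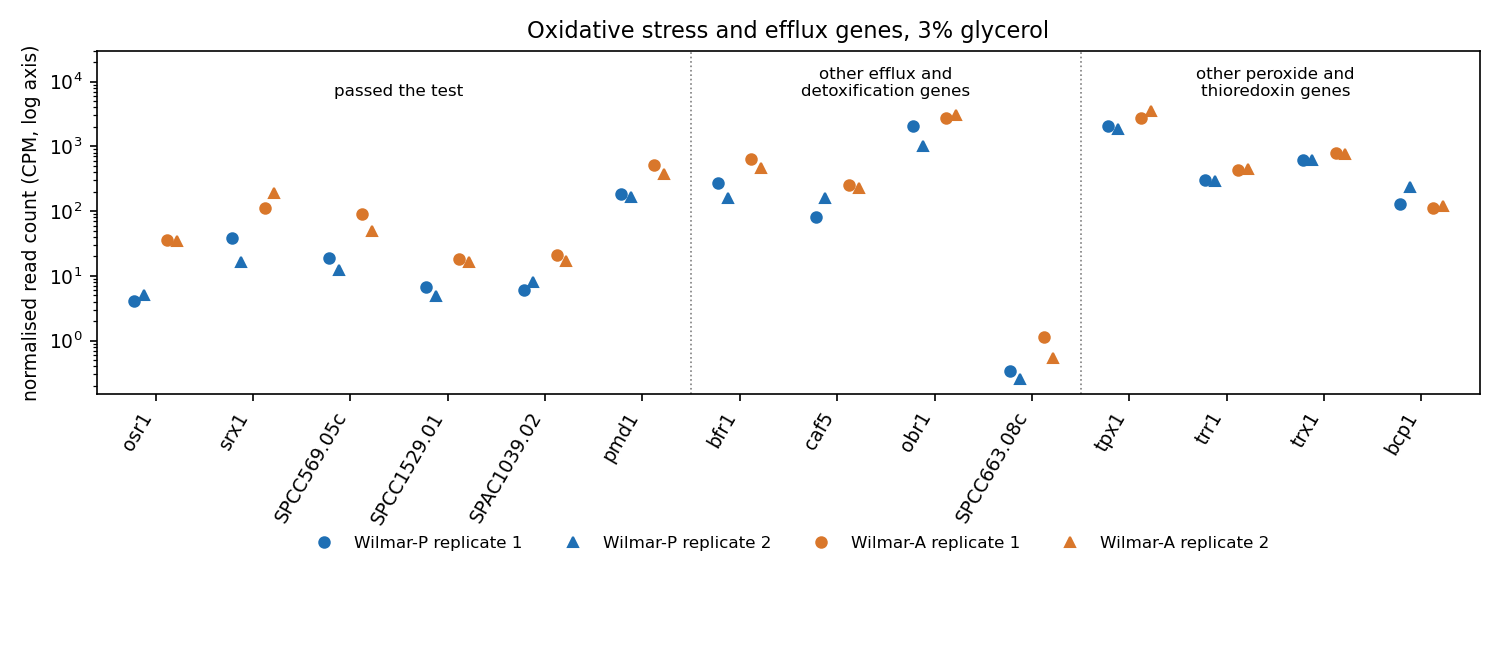
CPM in each glycerol library of the 6 coding genes that passed the test and of picked efflux, peroxide and thioredoxin genes. The axis is logarithmic, with Wilmar-P blue and left of Wilmar-A in orange, circles replicate 1 and triangles replicate 2. List members whose isolates overlapped, such as mfs1 and ctt1, are not drawn. The 6 genes on the left passed the test, with osr1 at 4.12 and 5.13 CPM in Wilmar-P and 35.6 and 34.7 CPM in Wilmar-A. They include the phosphatase gene SPAC1039.02 and the transporter gene SPCC1529.01, so the figure's title does not describe all of them. The isolates lie closer together for the peroxide and thioredoxin genes drawn on the right.

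The enzymes that remove peroxide and superoxide did not differ as a group. Of 11 tested, 1 fell (srx1), 1 was higher at an unadjusted p below 0.05 and the median log2 fold change was 0.14. tpx1, for the main peroxiredoxin, had 2033 and 1867 CPM in Wilmar-P against 2773 and 3547 CPM in Wilmar-A (log2 fold change -0.70, edgeR adjusted p = 0.904). bcp1, for another thioredoxin peroxidase, had 128.3 and 233 CPM in Wilmar-P against 111 and 122 CPM in Wilmar-A (log2 fold change 0.64, edgeR adjusted p = 0.886). The isolates did not overlap in either gene, with Wilmar-P below for tpx1 and above for bcp1. The catalase gene ctt1 had 1405 and 1338 CPM in Wilmar-P against 1076 and 2443 CPM in Wilmar-A, and the isolates overlapped (log2 fold change -0.36).

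Thioredoxin, glutaredoxin and glutathione genes gave 0 calls among 17 in edgeR and 0 in DESeq2, 0 at an unadjusted p below 0.05, and a median of 0.11. trr1, for thioredoxin reductase, had 308 and 290 CPM in Wilmar-P against 425 and 455 CPM in Wilmar-A (log2 fold change -0.56, edgeR adjusted p = 0.893). trx1, for cytosolic thioredoxin, had 606 and 626 CPM in Wilmar-P against 800 and 767 CPM in Wilmar-A (log2 fold change -0.35), and trx2 had 35.2 and 62.8 CPM against 32.2 and 34.1 CPM (0.56). The cytosolic enzyme genes trr1 and trx1 were thus on the lower side in both Wilmar-P libraries and trx2 on the higher side. The 20 regulators of stress signalling, among them the kinase gene sty1 and the factor gene atf1, had 0 calls in edgeR and DESeq2, 0 members at an unadjusted p below 0.05 and a median of -0.15. The 22 genes of the core environmental stress response had 0 calls in edgeR, 1 higher and 2 lower at an unadjusted p below 0.05, and a median of -0.16. The lowest was cta3, an ATPase gene of cation transport, with 101 and 38.3 CPM in Wilmar-P against 221 and 295 CPM in Wilmar-A (log2 fold change -1.89, edgeR adjusted p = 0.250), which the DESeq2 test called.

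Heat shock and chaperone genes tended to lie lower in Wilmar-P. Of 20, 0 passed the test in edgeR or DESeq2, 4 were lower at an unadjusted p below 0.05, and 13 lay below Wilmar-A without overlap, beside 16.5% of all coding genes, with a median of -0.24. ssa1, for an Hsp70 chaperone, had 460 and 398 CPM in Wilmar-P against 1394 and 852 CPM in Wilmar-A (log2 fold change -1.39, edgeR adjusted p = 0.835). Its relative ssa2 had 210 and 424 CPM in Wilmar-P against 907 and 840 CPM in Wilmar-A (log2 fold change -1.46, edgeR adjusted p = 0.835). Both Wilmar-P libraries were below both Wilmar-A libraries for each, and the lower one was replicate 2 for ssa1 and replicate 1 for ssa2. The co-chaperone gene mas5 had 114 and 121 CPM in Wilmar-P against 188 and 170 CPM in Wilmar-A (log2 fold change -0.60).

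**Figure D3:**
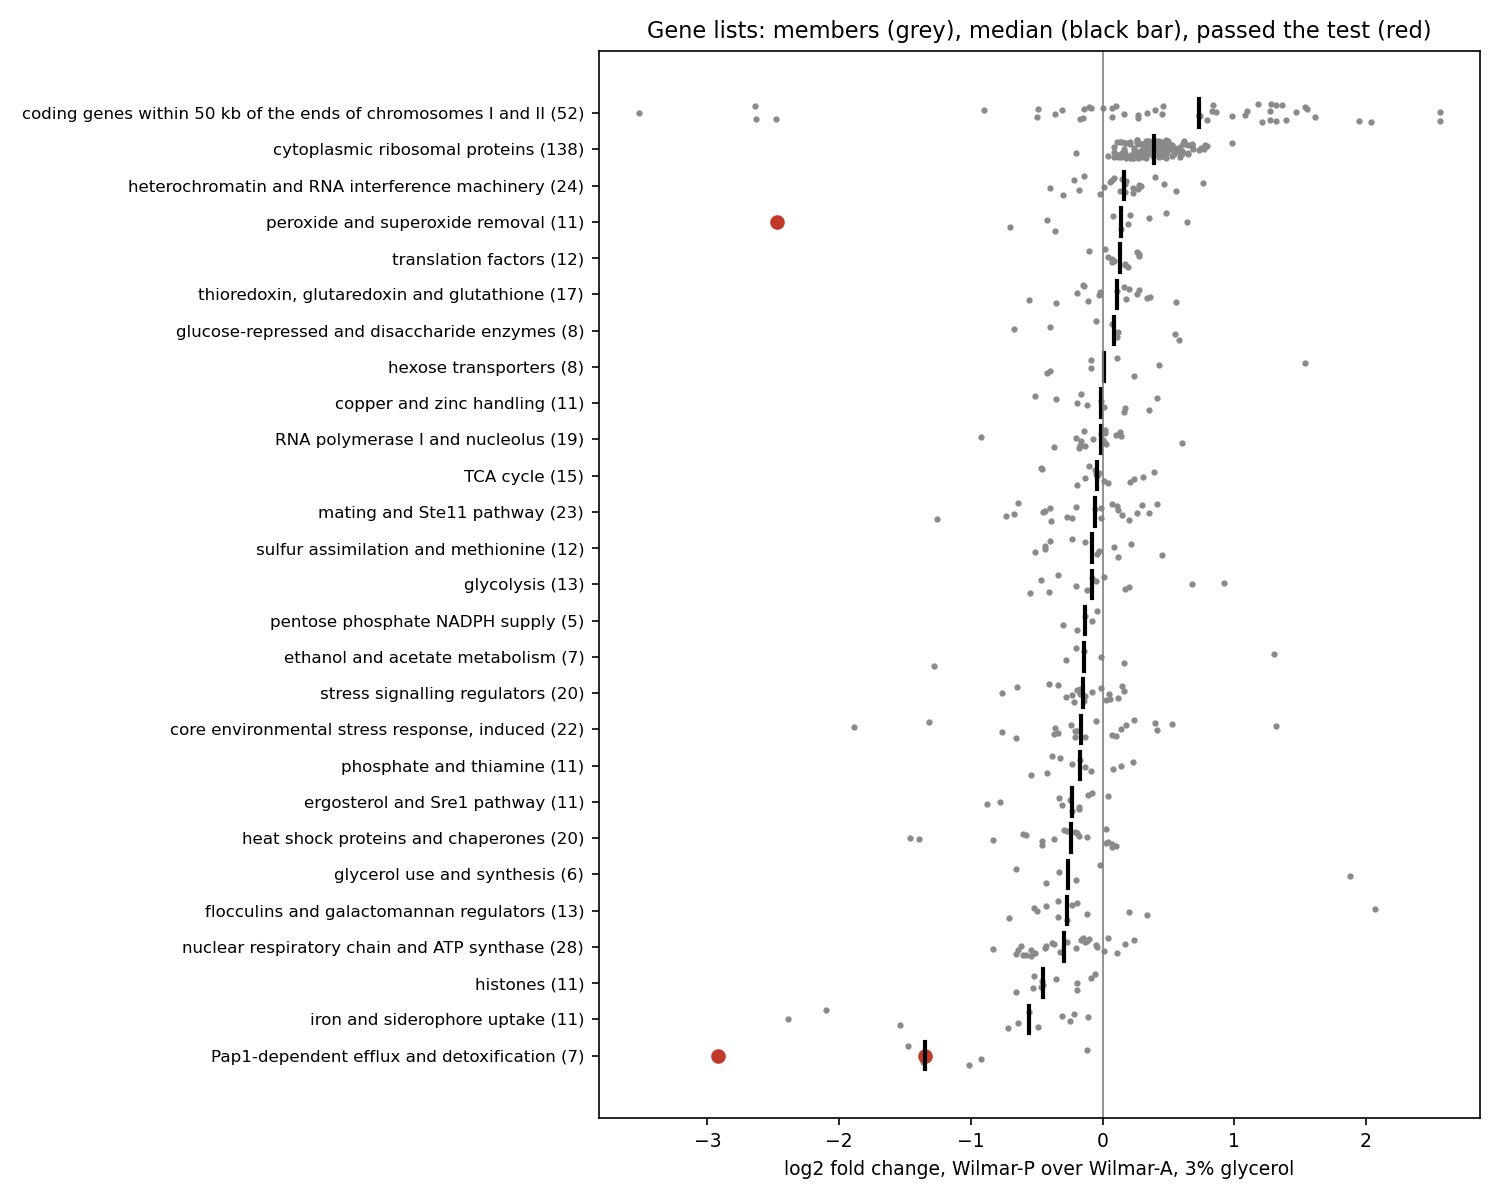
Log2 fold change, Wilmar-P over Wilmar-A, of each tested member of the gene lists (grey points, number tested in parentheses), with the list's median as a black bar and members that passed the test in red. The medians run from -1.35 for the Pap1-dependent efflux list to 0.73 for coding genes near the ends of chromosomes I and II. Lists and members were chosen with earlier results of these data known.

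Iron and siderophore uptake genes all had values below 0. Of 11 tested, 0 passed in edgeR and 3 were lower at an unadjusted p below 0.05. Without overlap, 6 lay below, beside 16.5% of all coding genes, and the median was -0.56. str3, for a siderophore transporter, had 0.168 and 0.598 CPM in Wilmar-P against 2.34 and 1.72 CPM in Wilmar-A (log2 fold change -2.39, edgeR adjusted p = 0.619), and the DESeq2 test called it. frp1, the ferric reductase gene, had 6.90 and 1.28 CPM in Wilmar-P against 16.5 and 7.33 CPM in Wilmar-A (log2 fold change -1.54, edgeR adjusted p = 0.835). php4, for the repressor that acts when iron is short, had 59.2 and 38.6 CPM in Wilmar-P against 68.9 and 75.3 CPM in Wilmar-A (-0.56). The group's median lay between -0.91 without Wilmar-P replicate 1 and -0.19 without Wilmar-A replicate 1, so single libraries set its size.

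Ribosomal protein genes showed the opposite direction, by a small amount. Of 138 cytoplasmic ribosomal protein genes tested, 0 passed in edgeR and none was among the DESeq2 calls, 8 were higher at an unadjusted p below 0.05, 137 had values above 0 and 85 lay above Wilmar-A without overlap, beside 22.3% of all coding genes. The median was 0.39, with 0.12 in the replicate 1 pair and 0.63 in the replicate 2 pair, and it was 0.12 without Wilmar-P replicate 2. rpl3602 had 466 and 606 CPM in Wilmar-P against 321 and 299 CPM in Wilmar-A (log2 fold change 0.79, edgeR adjusted p = 0.835). rps1402 had 592 and 736 CPM in Wilmar-P against 458 and 333 CPM in Wilmar-A (0.75, edgeR adjusted p = 0.816). Replicate 2 of Wilmar-P was the highest library for both. Many of these genes have near-identical paralogs, and reads between them may be split or shared.

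Respiratory chain and ATP synthase genes encoded in the nucleus lay lower in Wilmar-P, with a median of -0.29. Of 28, 0 passed in edgeR and 2 were lower at an unadjusted p below 0.05. Without overlap, 13 lay below, beside 16.5% of all coding genes. cox9, for a subunit of cytochrome c oxidase, had 110 and 118 CPM in Wilmar-P against 178 and 171 CPM in Wilmar-A (log2 fold change -0.62, edgeR adjusted p = 0.741). cox4, for another subunit, had 257 and 183 CPM in Wilmar-P against 362 and 421 CPM in Wilmar-A (-0.83, edgeR adjusted p = 0.835). Histone genes had 0 of 11 passing in edgeR and DESeq2, 1 lower at an unadjusted p below 0.05, all 11 values below 0 and a median of -0.45. hta1, for histone H2A, had 606 and 415 CPM in Wilmar-P against 766 and 852 CPM in Wilmar-A (-0.66). Without Wilmar-P replicate 2 the medians were -0.19 for the respiratory list and -0.11 for the histones. In the ergosterol list, 0 of 11 passed in edgeR, 2 were lower at an unadjusted p below 0.05 and the median was -0.23. Its lowest members were a pair of C-5 sterol desaturase genes, erg31 at 51.0 and 37.1 CPM in Wilmar-P against 83.2 and 79.3 CPM in Wilmar-A (-0.88, edgeR adjusted p = 0.341) and erg32 (-0.78).

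Genes of carbon metabolism gave 0 calls in edgeR. The medians were 0.01 for 8 hexose transporters, -0.08 for 13 glycolysis genes, -0.04 for 15 genes of the TCA cycle, -0.26 for 6 genes of glycerol use and synthesis, -0.14 for 7 genes of ethanol and acetate metabolism and 0.09 for 8 glucose-repressed and disaccharide genes. The glycerol list was set by single libraries, with a median of 0.20 in the replicate 1 pair and -1.19 in the replicate 2 pair, and of -1.27 without Wilmar-P replicate 1 and 0.27 without Wilmar-P replicate 2. pdc101, a putative pyruvate decarboxylase gene, had 232 and 166 CPM in Wilmar-P against 537 and 428 CPM in Wilmar-A (log2 fold change -1.28, edgeR adjusted p = 0.430), and was called by DESeq2. dak2, for dihydroxyacetone kinase, shows how far Wilmar-P replicates could part, at 555 and 30.01 CPM in Wilmar-P against 91.9 and 67.3 CPM in Wilmar-A. The remaining lists had medians of -0.13 (pentose phosphate NADPH supply), -0.01 (RNA polymerase I and nucleolus), 0.13 (translation factors), -0.06 (mating and Ste11 pathway), -0.01 (copper and zinc), -0.17 (phosphate and thiamine), -0.08 (sulfur assimilation and methionine) and -0.27 (flocculins and their regulators), and 0 members of each passed in edgeR. Single libraries moved some of these medians, as the pentose phosphate list was at -0.50 without Wilmar-P replicate 1 and 0.17 without Wilmar-P replicate 2, and the copper and zinc list at -0.47 and 0.16.

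Coding genes near the chromosome ends lay higher in Wilmar-P. Within 50 kb of the ends of chromosomes I and II, 52 coding genes were tested, and 0 passed in edgeR. At an unadjusted p below 0.05, 12 were higher and 2 lower. Without overlap, 21 lay above and 4 below Wilmar-A, beside 22.3% and 16.5% of all coding genes. Their median log2 fold change was 0.73, with 0.90 in the replicate 1 pair and 0.16 in the replicate 2 pair, and it was 0.15 without Wilmar-P replicate 1. SPAC212.06c, a helicase-like gene, had 10.2 and 8.46 CPM in Wilmar-P against 1.94 and 2.90 CPM in Wilmar-A (log2 fold change 1.95, SE 0.39, edgeR adjusted p = 0.123), and it was the 1 gene that DESeq2 called higher. SPAC212.12, for a GPI-anchored protein, had 6.06 and 6.67 CPM in Wilmar-P against 0.888 and 1.27 CPM in Wilmar-A (2.56, edgeR adjusted p = 0.260). SPAC750.07c at the other end of chromosome I has the same value in every library, so copies share their reads and are not separate measurements. tlh1, a RecQ helicase gene, had 99.6 and 70.1 CPM in Wilmar-P against 32.6 and 40.6 CPM in Wilmar-A (1.21, edgeR adjusted p = 0.699). Not all end genes were on the higher side, as SPAC977.18, of unknown function, had 6.99 and 2.65 CPM in Wilmar-P against 34.8 and 18.9 CPM in Wilmar-A (-2.48, edgeR adjusted p = 0.287).

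Outside these groups, the coding gene with the lowest fitted value among those without overlap and with an unadjusted p below 0.05 was fub2, for a protein of the PI31 proteasome regulator family. It had 1.51 and 1.97 CPM in Wilmar-P against 40.8 and 12.4 CPM in Wilmar-A (log2 fold change -3.93, SE 0.78, edgeR adjusted p = 0.123), so Wilmar-A replicates differed more than Wilmar-P ones. SPBC19C7.04c was taken from earlier results of these data to look at the isolate labels, so it is no independent check of them. It had 19.6 and 9.06 CPM in Wilmar-P against 52.0 and 57.2 CPM in Wilmar-A (-1.93, edgeR adjusted p = 0.152), in the same direction as in the other media.

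Along chromosome III from 120540 to 220283 (ASM294v2, 99744 bases) the Wilmar-P libraries disagreed, and its genes are given apart for that reason. The span holds 39 coding genes and pseudogenes, all tested, of which 0 passed in edgeR and 12 were higher at an unadjusted p below 0.05. Of the 39, 11 lay above Wilmar-A without overlap, beside 22.3% of all coding genes. Wilmar-P replicate 1 over Wilmar-A replicate 1 gave a median log2 difference of -0.01, with 19 of 39 genes above 0. Wilmar-P replicate 2 over Wilmar-A replicate 2 gave 1.04, with 38 of 39 above 0. Set against the other Wilmar-A library the medians were 0.02 for Wilmar-P replicate 1 and 1.12 for Wilmar-P replicate 2, and the Wilmar-A libraries differed from each other by -0.02. The fitted median of 0.63 is therefore a mean of unlike libraries: it was 1.10 without Wilmar-P replicate 1 and -0.00 without Wilmar-P replicate 2. The study describes this stretch as duplicated in Wilmar-P, and Wilmar-P replicate 1 in glycerol does not show a raised level there. Other Wilmar-P libraries varied as well: over the mean of the Wilmar-A libraries of the same medium, the median of the span was 0.26 in replicate 1 and -0.04 in replicate 2 in glucose, 0.39 and 0.57 in glycerol with glucose, and -0.00 and 1.09 in glycerol. Replicate 1 in glycerol was on the Wilmar-P side for the centromeric lncRNAs and SPBC19C7.04c. These genes were picked with values of these data known, so they are no independent check of its label. Whether its cells carried the duplication was not tested.

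In the 38 coding genes on either side, the medians of these 4 pairs lay between -0.04 and 0.30 before the span and between -0.04 and 0.03 after it. The bounds of the span were set with these libraries known, so they are not a finding. At the first edge, SPCC330.07c had 1.94 and 11.54 CPM in Wilmar-P against 4.60 and 3.98 CPM in Wilmar-A, and at the other edge wtf3, of a spore-killer family, had 14.1 and 23.1 CPM against 13.6 and 22.4 CPM, so same-numbered libraries hardly differed there. Within the span, rpl2402, for a ribosomal protein, had 295 and 942 CPM in Wilmar-P against 306 and 323 CPM in Wilmar-A, and sdh3, of succinate dehydrogenase, had 613 and 1226 CPM against 704 and 694 CPM. Replicate 1 of Wilmar-P was thus close to Wilmar-A in both genes and replicate 2 was well above it. Some genes differed by more than the median of the span: the hexose transporter gene ght6 had 69.0 and 277 CPM in Wilmar-P against 74.6 and 44.3 CPM in Wilmar-A, and mug146 had 8.42 and 127.9 CPM against 11.8 and 6.34 CPM. The hexose transporter gene ght5 had 3416 and 3937 CPM in Wilmar-P against 3505 and 1965 CPM in Wilmar-A (log2 fold change 0.43), so the isolates overlapped. ght5 and ght6 are also counted in the hexose transporter list, sdh3 in the TCA cycle list and rpl2402 among the cytoplasmic ribosomal protein genes. mpc1 was above Wilmar-A in both Wilmar-P libraries, at 412 and 662 CPM against 279 and 275 CPM (log2 fold change 0.96, edgeR adjusted p = 0.435).

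**Figure D4:**
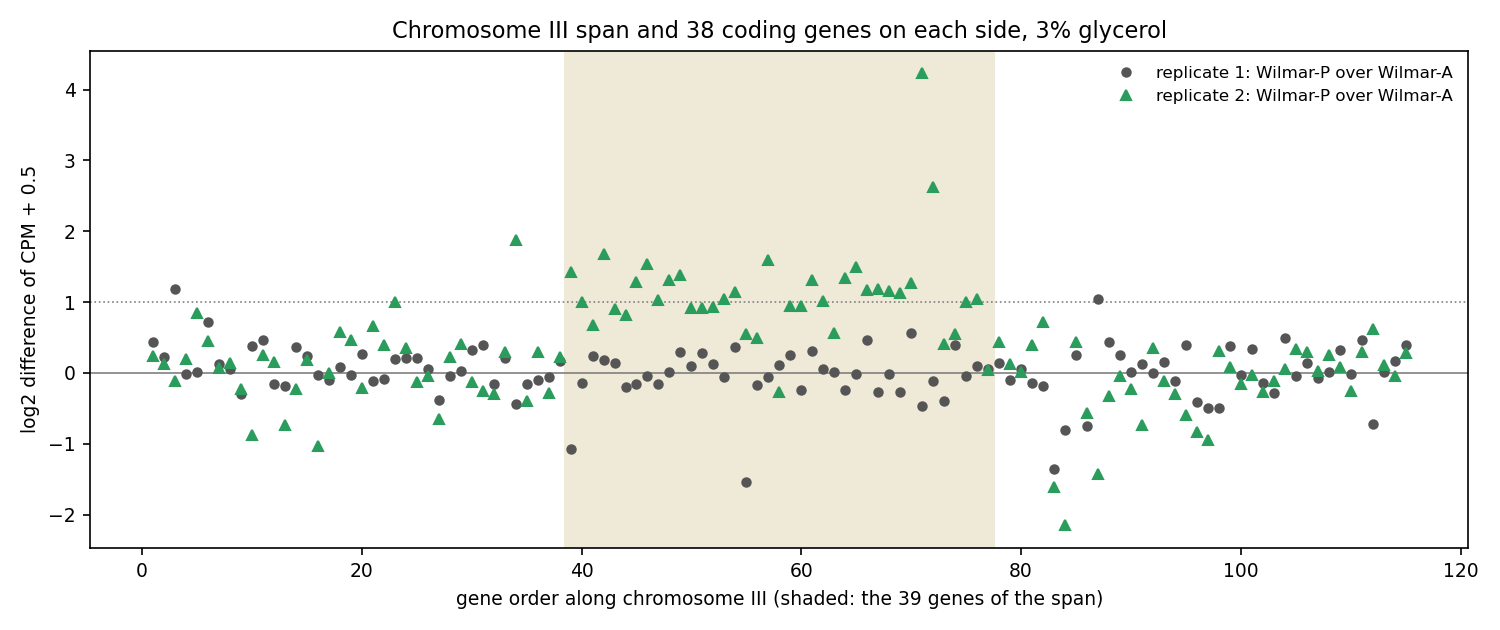
Log2 difference, Wilmar-P over Wilmar-A, of CPM + 0.5 for each same-numbered pair of glycerol libraries, by gene order along chromosome III (grey circles replicate 1, green triangles replicate 2), with the 39 genes of the span shaded. Inside the span replicate 2 lies near 1 (median 1.04) and replicate 1 near 0 (median -0.01), and outside it the medians of both lie near 0. Single genes outside lie further off, such as SPCC1529.01 and the dehydrogenase gene gcd1 after the span (fitted log2 fold changes -1.55 and -1.32).

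Whether the isolates differed more in glycerol than in the other media was tested directly. No coding gene passed edgeR's test of a change in the isolate difference between glycerol and glucose (0% at an adjusted p below 0.05, 3.43% at an unadjusted p below 0.05) or between glycerol and glycerol with glucose (0% and 1.70%). The counts were also 0 with the replicate number as a term and with Wilmar-A glucose replicate 1 coded as unstranded. The 6 genes that fell in glycerol had log2 fold changes below 0 in the other media too. osr1 had -1.60 in glucose and -1.06 in glycerol with glucose, srx1 had -1.08 and -1.52, and SPCC569.05c had -1.13 and -1.28. pmd1 had -0.42 and -0.86, SPCC1529.01 had -0.38 and -0.40, and SPAC1039.02 had -0.68 and -0.42, and none of the 12 values passed the test in its medium. The media share no libraries, but they share the fit and its estimate of spread.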

How the data were processed

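RNA-seq counts of Wilmar-P and Wilmar-A in 3% glycerol (2 libraries each) were taken from a table of 16 libraries and 7019 genes. The deposited values are raw counts per gene. The authors trimmed reads with Trim_Galore and cutadapt 1.9.1, aligned them with TopHat2 2.1.1 to the laboratory genome ASM294v2 and counted them with featureCounts 1.5.2, adding a read to each gene it overlapped and using strand for stranded libraries. Near-identical copies have near-equal counts, so copies share reads. Names, biotypes and sequences came from RefSeq ASM294v3, in which 6845 of the gene IDs had a match. Windows before genes were read from that genome with its own annotation.

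Counts were tested with edgeR 4.0.16 in R 4.3.3 (TMM, expression filter, quasi-likelihood fit with a term for each of 8 groups and for labelled strandedness, 7 residual degrees of freedom, Benjamini-Hochberg adjustment over 6662 genes). The procedure was tested on simulated data. A coding gene passed at an adjusted p below 0.05 with a log2 fold change beyond 1 in either direction. DESeq2 1.42.0 (the submitters' processing notes list 1.12.3, and the study's methods name a different version), other filters, scalings, codings and left-out libraries were tried as alternatives. Pair differences used log2 of CPM + 0.5. Intervals on ratios cover counting error only, at the 95% level, and 3 counts were taken as the floor. Totals of 13246648 to 18164249 counts per library limit what low genes can show. In a whole culture, fewer cells with a transcript and less of it per cell cannot be told apart.

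Genes were chosen by rule: coding genes past the threshold, the 8 highest and 8 lowest without overlap and with an unadjusted p below 0.05, up to 4 members of each list by p, up to 5 non-coding genes past the threshold, and edge and hexose transporter genes of the chromosome III span. Not all genes chosen are described. Among the 8 highest and 8 lowest, mug103, gem7, SPBP19A11.02c, mek1 and SPAC4H3.17 are examples of genes left out. Further centromeric lncRNAs, chromosome end genes, list members and neighbours were named after their values were seen. The members and lists were chosen with earlier results of these data known, and the centromeric and heterochromatin lists after seeing these values. Symbols that RefSeq gives to another protein were taken off 3 lists after a look at their products.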

Additional observations from a re-analysis of the deposited data

Results flagged for a closer look

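For 6 genes the isolates lay apart in both media compared, in opposite directions, and none of these 7 differences passed edgeR's test of a change between media. Lying apart was common: in glycerol alone Wilmar-P lay above for 22.3% of coding genes and below for 16.5%. The share of all genes that lay apart in opposite directions is not given here, so the 6 are not shown to be unusual. The values are the isolate difference (Wilmar-P over Wilmar-A, log2) in glycerol minus that in the other medium. Against glucose they were 0.88 for the peroxidase gene bcp1 (adjusted p = 0.784), 1.67 for the hexitol dehydrogenase gene tms1 (adjusted p = 0.853) and -2.91 for the centromeric lncRNA SPNCRNA.485 (adjusted p = 0.784). Against glycerol with glucose they were 1.04 for bcp1, -3.97 for the siderophore transporter gene str3, -2.38 for the ferric reductase gene frp1 and -1.80 for the pyruvate decarboxylase gene pdc101, each with an adjusted p of 1. str3 had a log2 fold change of -2.39 in glycerol and 1.58 in glycerol with glucose, and pdc101 had -1.28 and 0.52. SPNCRNA.485, at the centromere of chromosome III, had -1.35 in glycerol and 1.56 in glucose, unlike the centromeric lncRNAs of chromosomes I and II, which were lower in Wilmar-P in both.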

How the results depend on the processing

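The number of coding genes lower in Wilmar-P was 6, and 3 with at least 10 counts in every library, 3 without the strandedness term, 3 with the replicate number as a block (without srx1, pmd1 and SPAC1039.02), 9 with Wilmar-A glucose replicate 1 coded as unstranded (adding fub2, SPBC19C7.04c and SPCC737.04), 1 with only the 4 glycerol libraries, 19 with the DESeq2 Wald test and 19 with non-coding genes included. The number higher was 0, and 1 with Wilmar-A glucose replicate 1 coded as unstranded and 1 with the DESeq2 Wald test. Leaving out 1 library gave 0 to 6 lower and 0 to 12 higher, where the lone library of an isolate is assumed to vary like the other groups, and the 12 came without Wilmar-P replicate 1. Of the genes gained in that fit, atp23, cue2, get2, hif2, mug146 and sec6 lie in the chromosome III span. The number higher there thus depends in part on the span, in which the Wilmar-P libraries disagreed. With at least 10 counts in every library 3 centromeric lncRNAs passed, of the few left under that filter, and 6 to 9 did with 1 library left out. With 1 library left out the log2 fold change turned sign for some genes that did not pass, which ranged from -0.11 to 3.82 for mug146, from -1.15 to 1.43 for SPCC330.07c, from -0.11 to 0.10 for SPCC663.18, from -0.83 to 0.35 for ctt1, from -1.41 to 2.80 for dak2, from -0.09 to 0.12 for dcr1, from -0.17 to 0.14 for emc5, from -0.92 to 0.79 for mfs1, from -0.09 to 0.07 for pap1, from -0.09 to 1.58 for rpl2402, from -0.19 to 0.81 for sdh3 and from -0.35 to 0.45 for wtf3. That of dcr1 was also -0.02 with DESeq2 size factors and -0.02 with the DESeq2 Wald test. Besides these, the alternatives gave 1199 gene values with the same call, 17 that gained and 56 that lost it. No label says that a replicate number marks a shared culture, day or batch, and replicate differences of the isolates correlated at 0.343 across coding genes, so what same-numbered libraries share is not known. All fits of the medium tests gave 0 genes. Alternatives for the centromeric, heterochromatin and chromosome end lists were added after seeing the data. Wilmar-A glucose replicate 1 is labelled stranded but had 8.65% of its counts on lncRNAs and other non-coding RNAs. The other stranded glucose libraries had 1.35% (Wilmar-P replicate 2) and 1.55% (Wilmar-A replicate 2). The stranded glycerol libraries had 1.97% and 1.77% in Wilmar-P and 2.20% and 2.20% in Wilmar-A. Libraries labelled unstranded had 8.34% (Wilmar-P in glucose), 8.49% (Wilmar-P in glycerol with glucose) and 8.45% (Wilmar-A in glycerol with glucose). The main fit kept its label, and coding it as unstranded lowered the common dispersion to 0.0447, against 0.1.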
